A study of Mus musculus with 4 samples.

Results

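A total of 384 spots rich in Spink8 and Fibcd1, transcripts known to mark pyramidal neurons of hippocampal field CA1, were compared between brains with an endothelial deletion of Pdcd10 and control brains. They came from 11244 spots with at least 5000 unique molecular identifiers (UMIs, counts of captured RNA molecules), among 19968 barcodes in all. In each library, spots were ranked by the share of their UMIs that came from the 2 genes together. Spots in the top 4% with at least 1 Spink8 UMI were kept. This gave 80 spots in control 1, 83 in control 2, 96 in knockout 1 and 125 in knockout 2. The limit of the ranking was 177, 160, 190 and 221 UMIs in 1000000, in the same order of libraries, which is used throughout. The 10 spots just inside it had a median of 185, 166, 195 and 225, and the 10 just outside 173, 155, 188 and 216. Levels of Spink8 and Fibcd1 chose the spots and were kept out of every comparison.

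The study profiled 10 µm brain sections with 10x Visium, which captures RNA on an array of barcoded spots, each covering a small region that can hold several cells. The knockouts carried Slco1c1-iCreERT2, a tamoxifen-dependent Cre driven from the promoter of a transporter gene of brain endothelium, with both alleles of Pdcd10 floxed. The controls were Pdcd10fl/fl littermates that lacked the Cre. Both groups received 50 µg of 4-hydroxytamoxifen on postnatal day 1 and were examined on day 65, with 2 libraries a group. Titles and design text give normoxia for all libraries, a treatment label gives hypoxia for the knockouts, and a protocol shared by all mentions 12% oxygen over 2 days. If the treatment label holds, oxygen and genotype cannot be told apart. The labels do not say that the 2 libraries of a group came from different animals, so p-values measure the spread between libraries, which may be technical. The tests share their estimate of that spread across genes, so a p-value does not rest on a gene's own values alone.

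CA1 is the last excitatory relay of the hippocampal circuit. Its pyramidal neurons receive input from field CA3 and from the entorhinal cortex, and their plasticity is a textbook model of memory. Astrocytes, microglia, oligodendrocytes, interneurons and capillaries lie among them, so a spot over CA1 reads all of these cells together. In cerebral cavernous malformation, the disease that follows loss of Pdcd10 from endothelium, dilated and leaky vessels form in the brain.

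The label was checked against other CA1 markers, given here as counts per 1000000 UMIs (CPM) of the summed spots. Mpped1 stood at 283, 234, 144 and 176 CPM inside the spots and at 117, 102, 81.9 and 72.6 CPM in all other spots. Ccn3, a matricellular protein gene, stood at 992, 787, 588 and 494 CPM inside and at 261, 221, 318 and 276 CPM outside. Both were higher inside the spots in every library, as were Pou3f1, Itpka, Neurod6, Ndst4 and Hpca. Wfs1, an endoplasmic reticulum gene that marks dorsal CA1, went against the label in the knockouts. It was at 77.5 and 54.5 CPM inside and 51.1 and 48.5 CPM outside in the controls, but at 154 and 129 CPM inside and 207 and 216 CPM outside in the knockouts. Zbtb20, a transcription factor of hippocampal neurons, was lower inside than outside in both controls and higher in both knockouts. Lefty1 was low in every library, at 9.42 CPM or less inside. The summed marker lists of CA2, dentate granule cells, thalamus, striatum, choroid plexus and leptomeninges were lower inside than outside in all 4 libraries. Other lists did not separate the spots. The CA3 list was lower inside in both controls, at 145 and 136 CPM against 170 and 165 CPM, and higher inside in both knockouts, at 169 and 182 CPM against 136 and 156 CPM. The cortical layer list was higher inside in 3 of 4 libraries, at 687, 631, 620 and 522 CPM against 612, 593, 524 and 535 CPM. The interneuron list was higher inside in all 4, from 2670 to 3434 CPM against 2428 to 3168 CPM. The spots are therefore named here by Spink8 and Fibcd1.

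The summed spots held 2194383, 2421642, 1426161 and 3397738 UMIs, with a median of 28567.5, 30180, 13390 and 22802 per spot. The whole libraries held 50148764 to 74467027 UMIs. Mitochondrial genes took 5.13%, 8.60%, 7.54% and 6.69% of the summed spots. Each library lists the same 4992 barcodes. The controls shared 12 barcodes among their chosen spots, the knockouts 22, and libraries of different groups 1 or 2. More barcodes were thus shared within a group than between groups, and placement on the array cannot be told apart from genotype. The correlation of log2 CPM was 0.98 within either group and 0.93 to 0.95 between groups. Pdcd10 itself was at 110, 80.3, 96.3 and 84.8 CPM, with overlapping groups and a log2 fold change of -0.085 (SE 0.165, adjusted p = 0.809). The Cre acts in brain endothelium, and the counts read all cells under a spot.

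Knockouts and controls were then compared over the 4 sums with edgeR's quasi-likelihood test. All log2 fold changes are knockout over control, and p-values were adjusted over the 11788 genes tested. In the knockouts 761 genes were higher (6.46%) and 607 were lower (5.15%) at an adjusted p under 0.05, together 11.6%. The numbers were 283 and 223 without control 1, 476 and 433 without control 2, 636 and 503 without knockout 1, and 478 and 222 without knockout 2. The median log2 fold change over all tested genes was 0.0019. Genes named below for the greatest rises, greatest falls or lowest p-values were chosen among calls whose groups lay apart. Separation of the groups in such genes, Serpina3n, Vim, Gfap, Fos and Mag among them, follows from that choice. In spots, fewer cells of a type and less RNA per cell cannot be told apart. Genes with few control UMIs pass the filter on low counts only through the knockouts and had to differ. Among genes named below this holds for Lcn2, Timp1, Fcgr2b, A2m, Kcne1l, Capg, Galnt15, Gpnmb, Adm, Gal and Ifit3. The p-values of these genes in this fit add no evidence to their counts. A list's counts and median therefore describe its tested genes and not the list, above all where many members are near background in the controls, as in the astrocyte, complement, phagocyte and interferon lists.

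Most tested reactive astrocyte genes rose. Reactive astrocytes are known to raise intermediate filaments, protease inhibitors and secreted proteins after injury. Of 32 listed genes 25 passed the filter on low counts, 23 rose and 0 fell, and the median log2 fold change was 2.65. The number that rose was 18 to 21 when single libraries were left out. Serpina3n, a secreted serine protease inhibitor that oligodendrocytes in diseased tissue express too, measured 15.2 and 20.9 CPM in controls, against 598 and 432 CPM in knockouts (log2 fold change 4.81, SE 0.21, adjusted p = 1.72e-10). Vim, the gene of the filament protein vimentin, was at 28.1, 33.9, 500 and 400 CPM (log2 fold change 3.84, adjusted p = 1.72e-10). In both genes every knockout library was more than 10 times above the controls. Gfap, the astrocyte filament gene, was at 28.1, 41.0, 394 and 272 CPM (log2 fold change 3.24, SE 0.20, adjusted p = 1.37e-08). S100a6, a calcium-binding protein gene, was at 27.7, 38.9, 392 and 297 CPM (log2 fold change 3.35, adjusted p = 3.03e-09). Again no control library came near a knockout library.

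Several astrocyte genes were close to undetected in the controls. Lcn2, which encodes the iron-siderophore binding protein lipocalin 2, had 1 UMI in the controls and 171 in the knockouts, a ratio of normalised levels of 164 (95% counting interval 29.0 to 6500). Timp1, which blocks matrix metalloproteinases, was at 0.922, 0.837, 37.5 and 33.1 CPM (log2 fold change 5.23, adjusted p = 1.5e-07). Fbln5, an elastic fibre component, was at 1.38, 3.35, 98.4 and 66.1 CPM (log2 fold change 5.0, SE 0.33, adjusted p = 2.85e-08). All 3 were at background in both controls and clearly present in both knockouts. Fam107a, an actin-binding gene induced by glucocorticoids and stress, already measured 88.5 and 110 CPM in controls, against 618 and 562 CPM in knockouts (log2 fold change 2.57, adjusted p = 4.26e-09).

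Genes of astrocyte homeostasis, which clear glutamate and buffer potassium, moved less and in both directions. Of 28 tested genes 7 rose and 4 fell, with a median log2 fold change of 0.29. Aldh1l1, a folate enzyme used as an astrocyte marker, was at 24.4, 22.6, 71.5 and 60.3 CPM (log2 fold change 1.46, adjusted p = 3.43e-05). The glutamate transporter gene Slc1a3 was at 239, 302, 525 and 457 CPM (log2 fold change 0.85, adjusted p = 0.000659). Gjb6, which encodes the gap junction protein connexin 30, was at 54.4, 71.5, 164 and 136 CPM (log2 fold change 1.23, adjusted p = 7.36e-05). The groups did not overlap in these genes. The genes called lower fell to 0 without control 2 and without knockout 2, and those called higher ranged from 4 without control 1 to 10 without control 2.

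**Figure D1:**
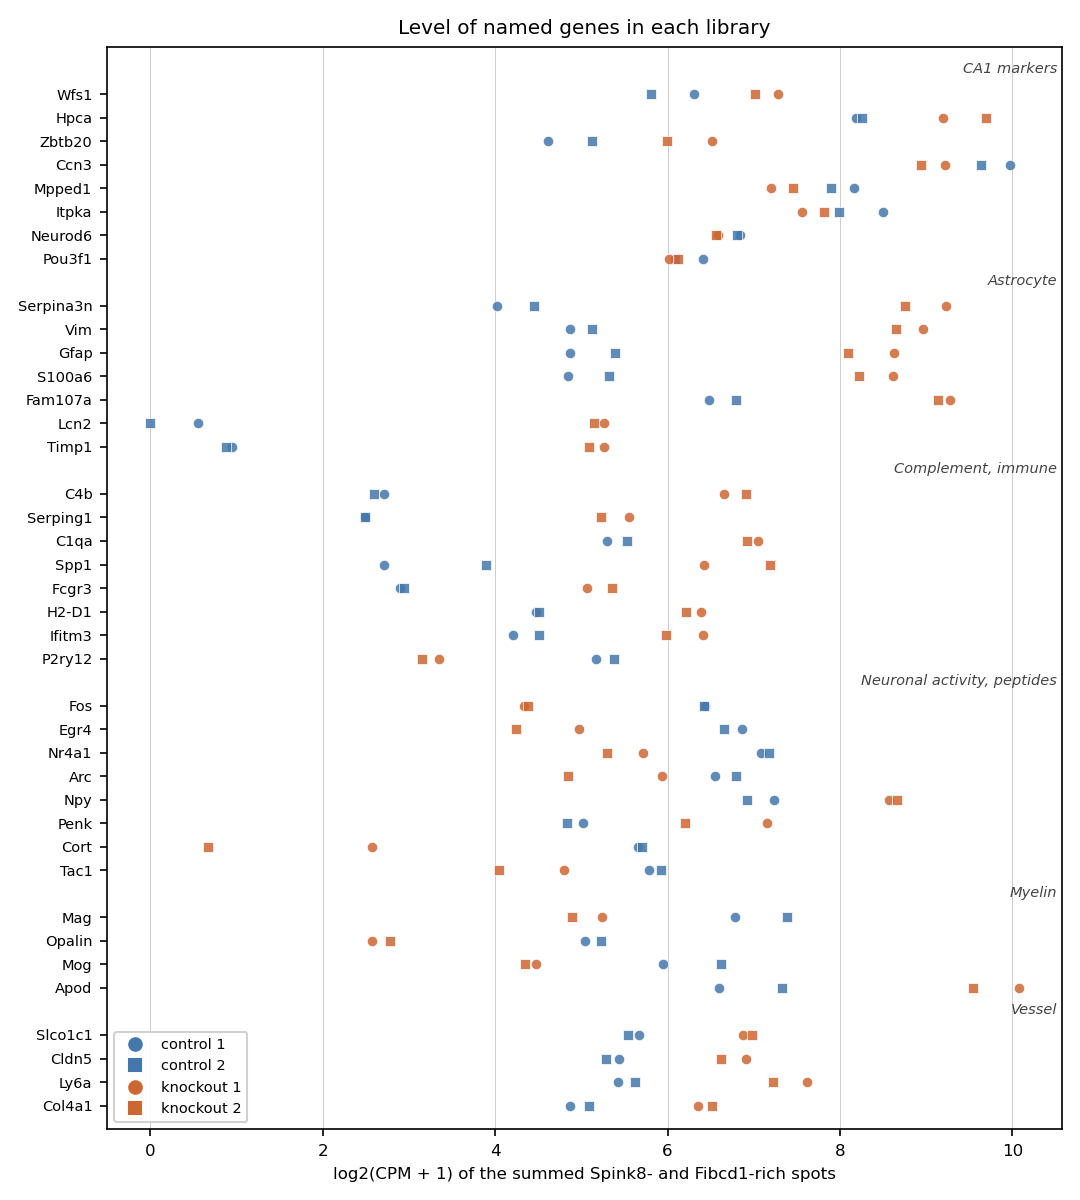
Level of named genes in the summed Spink8- and Fibcd1-rich spots of each library, on a log2(CPM + 1) axis. Blue symbols are the controls, orange the knockouts, with a circle for library 1 and a square for library 2. The 2 colours lie apart for Serpina3n, Vim and Gfap, while those of Pou3f1 overlap.

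Complement genes rose in part. Complement is a cascade of secreted proteins that tag synapses, debris and pathogens for uptake, and microglia are the main source of C1q in the brain. Of 19 listed genes 14 were tested, 8 rose and 0 fell, with a median log2 fold change of 1.47. C1qa, which encodes a chain of the initiating complex, was at 38.3, 45.2, 132 and 121 CPM (log2 fold change 1.58, adjusted p = 3.56e-06). C4b, a later component of the same pathway, was at 5.53, 5.02, 99.8 and 119 CPM (log2 fold change 4.38, SE 0.23, adjusted p = 1.73e-09). Reads of C4b and its near-identical neighbour C4a may be split between the copies, so its level is uncertain. Serping1, the inhibitor of C1, was at 4.61, 4.60, 46.0 and 36.6 CPM (log2 fold change 3.11, adjusted p = 1.18e-06). All 3 genes were higher in both knockouts than in either control.

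Genes of activated phagocytes, the brain's microglia and macrophages when they engulf lipid and debris, rose in part. Of 30 listed genes 23 were tested, 17 rose and 2 fell, with a median log2 fold change of 1.40, and 11 rose without control 1. Several of them, such as Fcgr2b with 9 UMIs in the controls and 243 in the knockouts, reached the test through the knockouts. Spp1, which encodes osteopontin, was at 5.53, 13.8, 85 and 145 CPM (log2 fold change 3.59, adjusted p = 3.84e-07). Fcgr3, an activating receptor for immunoglobulin, was at 6.46, 6.69, 32.6 and 39.8 CPM (log2 fold change 2.48, adjusted p = 6.58e-06). Fcgr2b, the inhibitory receptor of that family, was at 0.461, 3.35, 44.6 and 52.7 CPM (log2 fold change 4.61, adjusted p = 2.35e-07). Every knockout value was above every control value.

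Homeostatic microglia genes went the other way in part. Of 16 tested genes 2 rose and 4 fell, with a median log2 fold change of -0.41. P2ry12, the purinergic receptor that guides resting microglial processes, was at 35, 40.6, 9.20 and 7.90 CPM (log2 fold change -2.18, adjusted p = 1.32e-05). The groups lay far apart. The number that rose was 1 without control 2. The number that fell was 2 without control 1, 1 without control 2, 4 without knockout 1 and 3 without knockout 2. Sparc, a matrix-binding gene on this list and on the matrix list, went from 162 and 275 CPM to 881 and 744 CPM (log2 fold change 1.89, adjusted p = 3.25e-06). It is also made by astrocytes and endothelium.

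Some antigen presentation and interferon genes rose. Of 13 tested antigen presentation genes 4 rose, 1 fell and 8 were not called. H2-D1, a class I heavy chain gene, was at 21.2, 21.8, 82.8 and 73.4 CPM (log2 fold change 1.84, adjusted p = 2.38e-06). B2m, the light chain of class I, was at 103, 124, 206 and 181 CPM (log2 fold change 0.76, adjusted p = 0.00177). Class I heavy chain genes are close in sequence, so reads may be shared among them. Of 34 listed interferon response genes 22 were tested, 12 rose and 10 were not called, and the median log2 fold change of those tested was 1.70. The number that rose was 5 without control 1, 5 without control 2, 6 without knockout 1, 8 without knockout 2 and 3 with DESeq2. Ifitm3, a membrane protein gene that blocks virus entry, was at 17.5, 21.8, 84.2 and 62.3 CPM (log2 fold change 1.85, SE 0.20, adjusted p = 1.03e-05). Ifit3, an antiviral gene that is nearly silent without interferon, had 4 UMIs in the controls and 66 in the knockouts, at 0.461, 1.26, 19.1 and 11.4 CPM (log2 fold change 3.94, adjusted p = 0.000166). Both genes were apart between the groups.

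The promoters of these 2 genes and of Gfap show the motif letters that were searched. Windows ran from 250 bases before to 50 bases after the annotated start in RefSeq on GRCm38.p6, and both strands were searched. The interferon-stimulated response element was written GAAANNGAAA. Ifit3 lies at chr19:34583279-34583578 on the plus strand and Ifitm3 at chr7:141010695-141010994 on the minus strand, and each window holds the element 2 times, in capitals in either orientation.
Ifit3: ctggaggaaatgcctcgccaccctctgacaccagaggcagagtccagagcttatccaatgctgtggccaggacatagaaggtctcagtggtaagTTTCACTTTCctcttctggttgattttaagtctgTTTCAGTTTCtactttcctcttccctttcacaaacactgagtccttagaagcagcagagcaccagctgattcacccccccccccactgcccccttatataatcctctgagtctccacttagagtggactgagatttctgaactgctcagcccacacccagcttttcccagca
Ifitm3: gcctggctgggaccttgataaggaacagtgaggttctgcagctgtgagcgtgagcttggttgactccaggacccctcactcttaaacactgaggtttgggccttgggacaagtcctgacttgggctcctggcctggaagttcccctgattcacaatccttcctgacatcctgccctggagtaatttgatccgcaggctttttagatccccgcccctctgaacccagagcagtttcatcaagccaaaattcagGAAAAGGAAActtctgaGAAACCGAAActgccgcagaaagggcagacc
The element was found in 15 of the 26 list members with a promoter in the table and in 3.44% of all 32851 promoters. The list shares given here count genes, while the 32851 promoters belong to 27025 genes, so the shares differ in unit. Of the 12 genes that rose, 10 had a promoter and 9 of these held it. The palindrome TTCNNNGAA, bound by STAT factors, was found in 4 of 27 promoters of the reactive astrocyte list and in 8.3% of all promoters. Gfap, at chr11:102897151-102897450 on the minus strand, is among the 4, with the palindrome in capitals.
Gfap: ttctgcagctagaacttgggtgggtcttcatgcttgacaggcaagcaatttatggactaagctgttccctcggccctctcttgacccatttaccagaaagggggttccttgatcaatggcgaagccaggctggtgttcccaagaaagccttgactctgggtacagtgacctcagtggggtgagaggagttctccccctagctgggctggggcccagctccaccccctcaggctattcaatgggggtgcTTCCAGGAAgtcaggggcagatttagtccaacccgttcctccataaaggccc
The cyclic AMP response element TGACGTCA was found in 2 of 26 promoters of the immediate early list, those of Btg2 and Dusp1, and in 1.79% of all promoters.

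Immediate early genes, which neurons switch on within minutes of activity, fell in part. Of 31 tested genes 14 fell and 4 rose, with a median log2 fold change of -0.46, and the number that fell was 9 without knockout 2 and 7 with DESeq2. Fos, which encodes a subunit of the AP-1 transcription factor, measured 85.8 and 84.9 CPM in controls, against 19.1 and 19.9 CPM in knockouts (log2 fold change -2.12, SE 0.18, adjusted p = 3.84e-07). Egr4, a zinc finger factor gene, was at 115, 99.6, 30.4 and 17.8 CPM (log2 fold change -2.27, adjusted p = 1.2e-06). Nr4a1, an orphan nuclear receptor gene, was at 135, 143, 51.7 and 38.3 CPM (log2 fold change -1.68, adjusted p = 2.97e-06). Controls and knockouts were apart in all 3 genes. For Fos the replicates of each group were close together, while the knockouts differed more for Egr4 and Nr4a1. Arc, whose protein acts at synapses in plasticity, was at 92.7, 110, 60.2 and 27.8 CPM (log2 fold change -1.34, adjusted p = 0.00117), but its adjusted p was 0.253 with DESeq2. Homer1, a postsynaptic scaffold gene with an activity-induced short form, was at 113, 136, 128 and 123 CPM, with the knockouts inside the range of the controls (adjusted p = 0.988). The 4 genes that rose were Klf4, Csrnp1, Nptx2 and Jun, with log2 fold changes from 0.59 to 1.55, with 0 of the list higher without control 1 and 2 without knockout 2. Klf4 is also known as a transcription factor of endothelium.

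Neuropeptide genes split. Of 22 tested genes of peptides, granins and their processing enzymes, 5 rose and 5 fell, with a median log2 fold change of 0.12, and 3 fell without control 2 or without knockout 2. Cort, which encodes the interneuron peptide cortistatin, was at 49.3, 51.0, 4.96 and 0.585 CPM (log2 fold change -4.69, SE 0.39, adjusted p = 3.89e-07). Tac1, the gene of substance P, was at 54.0, 59.8, 26.9 and 15.5 CPM (log2 fold change -1.56, adjusted p = 0.000118), and its adjusted p was 0.16 when equal numbers of spots were thinned to 5000 UMIs. Both were lower in each knockout than in each control. Npy, the gene of neuropeptide Y, was at 149, 120, 380 and 403 CPM (log2 fold change 1.54, SE 0.14, adjusted p = 1.11e-06). Penk, the enkephalin precursor gene, was at 31.4, 27.6, 141 and 72.6 CPM (log2 fold change 1.78, adjusted p = 0.000139). Both were higher in each knockout, with a wide gap between the knockouts for Penk. Among 14 tested interneuron markers, Npy was the 1 that rose and Cck, the gene of cholecystokinin, was the 1 that fell.

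Genes of neuronal injury and growth also split, with 4 of 19 tested higher and 7 lower. Gal, the galanin gene induced in injured neurons, had 2 UMIs in the controls and 63 in the knockouts, a ratio of 30.1 (95% counting interval 8.01 to 254). Ecel1, a peptidase gene induced by nerve damage, was at 2.77, 3.77, 19.8 and 15.8 CPM (log2 fold change 2.38, adjusted p = 0.000448). Both were near background in the controls. Stmn1, a microtubule-destabilising gene of growing neurites, was at 884, 797, 462 and 366 CPM (log2 fold change -1.03, adjusted p = 0.000118). Marcksl1, an actin-regulating gene, was at 172, 203, 75.8 and 72.3 CPM (log2 fold change -1.35, adjusted p = 7.33e-06). Both were lower in each knockout than in each control. The number that fell was 4 without control 1, 4 without knockout 1 and 3 without knockout 2.

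Genes of CA1 neurons that the choice of spots did not use changed in different directions. Of 10 tested list members 3 rose and 4 fell, with 1 lower without control 1 and 2 without knockout 1 or without knockout 2. Hpca, which encodes the hippocampal calcium sensor hippocalcin, was at 290, 304, 585 and 828 CPM (log2 fold change 1.26, SE 0.15, adjusted p = 3.43e-05). Wfs1 was at 78.4, 55.2, 155 and 128 CPM (log2 fold change 1.07, adjusted p = 0.000448). Zbtb20 was at 23.5, 33.9, 90.6 and 62.9 CPM (log2 fold change 1.36, adjusted p = 0.000359, but 0.174 with equal numbers of spots thinned to 5000 UMIs). All 3 were higher in both knockouts. Ccn3 was at 1004, 797, 594 and 491 CPM (log2 fold change -0.74, adjusted p = 0.0033, and 0.0952 without knockout 2). Mpped1 was at 286, 237, 146 and 175 CPM (log2 fold change -0.69, adjusted p = 0.00358, with 0.0713 without control 1 and 0.0504 without knockout 1). Itpka, an inositol kinase gene of dendritic spines, and Ndst4, a heparan sulfate enzyme gene, passed the test too, and each lost the call without control 1 (adjusted p = 0.329 and 0.386). Neurod6 and Pou3f1, transcription factors of pyramidal neurons, had adjusted p of 0.26 and 0.544. Dcn, the gene of the matrix proteoglycan decorin and a marker of ventral CA1, was chosen after its values were seen. It was at 657, 534, 161 and 193 CPM (log2 fold change -1.74, SE 0.15, adjusted p = 4.77e-07). Dorsal and ventral CA1 differ in Wfs1 and Dcn, and a difference in the level of the sections cannot be told apart from genotype.

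Most synaptic genes were not called. Of 15 AMPA and kainate receptor and auxiliary subunits, the fast glutamate receptors, 1 rose and 3 fell, with a median of -0.15. Gria3, an AMPA receptor subunit gene, was at 236, 256, 148 and 155 CPM (log2 fold change -0.70, adjusted p = 0.00158, but 0.0653 with equal spots thinned). Of 6 tested NMDA receptor subunits 0 rose and 2 fell. Grin2c, a subunit that astrocytes also express, was at 25.8, 29.7, 6.37 and 7.02 CPM (log2 fold change -2.02, adjusted p = 0.000102, but 0.0801 with equal spots thinned). Both genes were lower in each knockout. Of 7 metabotropic glutamate receptors 2 fell, of 12 GABA-A receptor subunits 3 fell, and none of either list rose. Of 20 presynaptic release genes 3 rose and 2 fell, among them Cplx2, a complexin that clamps vesicle fusion, at 278, 318, 459 and 456 CPM (log2 fold change 0.62, adjusted p = 0.00426). Of 23 postsynaptic scaffold and kinase genes 2 rose and 1 fell. Of 35 potassium, sodium and HCN channel genes 3 rose and 4 fell, and of 25 calcium channel and calcium-binding genes 1 rose and 2 fell. With single libraries left out, 1 to 3 AMPA and kainate, 1 or 2 NMDA, 1 to 3 metabotropic and 1 or 2 GABA-A receptor genes fell. The channel genes that rose became 0 without control 1 and 1 without control 2, and those that fell became 2 without control 1 and 1 without control 2 or without knockout 2. The presynaptic genes that rose became 1 without control 1, knockout 1 or knockout 2, and those that fell became 0 without control 1 or knockout 1 and 1 otherwise. The postsynaptic genes that rose became 0 without control 1 and 1 without any other library, and the 1 that fell became 0 without knockout 1. The 1 calcium gene that rose became 0 without control 1 or knockout 2, and the 1 AMPA or kainate gene became 0 without control 1. The median log2 fold changes of these lists lay between -0.89 and -0.042. Pcp4, a calmodulin-binding gene enriched in CA2, was at 493, 486, 268 and 228 CPM (log2 fold change -0.99, adjusted p = 8.09e-05).

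Most tested myelin genes fell. Oligodendrocytes wrap axons in a membrane rich in a few abundant proteins, and CA1 is bordered by the alveus and other white matter. Of 18 tested genes 12 fell and 2 rose, the median log2 fold change was -1.28, and 10 to 12 fell when single libraries were left out. Mag, which encodes a myelin adhesion protein, was at 109, 166, 36.8 and 28.7 CPM (log2 fold change -2.12, SE 0.21, adjusted p = 2.59e-06). Mog, a surface protein of the outer myelin sheath, was at 60.9, 97.5, 21.2 and 19.3 CPM (log2 fold change -1.99, adjusted p = 1.37e-05). Opalin, a membrane protein gene of mature oligodendrocytes, was at 31.8, 36.4, 4.96 and 5.85 CPM (log2 fold change -2.61, adjusted p = 6.51e-06). None of these 3 overlapped between the groups. Apod, a lipid-carrying lipocalin, rose from 95.5 and 160 CPM to 1076 and 744 CPM (log2 fold change 2.82, adjusted p = 1.11e-07). The summed level of the whole list was 3268, 4989, 3401 and 2552 CPM, and here the groups overlapped. White matter under the chosen spots can differ between sections, and its part in these values was not tested. Of 7 listed genes of disease-associated oligodendrocytes 6 were tested, 5 rose and 0 fell, with the same counts when any single library was left out. This list holds Serpina3n, C4b and H2-D1, which are also on the astrocyte, complement and antigen presentation lists, and its summed level was 153, 174, 977 and 832 CPM. Of 11 oligodendrocyte precursor genes 3 fell, which became 2 without control 1, 1 without control 2 and 0 without knockout 2.

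Vessel genes rose in part. Slco1c1, a thyroid hormone transporter gene of the blood-brain barrier, was at 49.8, 45.6, 117 and 126 CPM (log2 fold change 1.35, SE 0.15, adjusted p = 1.32e-05). The knockouts alone carry a Cre driven from the promoter of this gene, and its part in this value was not tested. Cldn5, the tight junction gene of brain endothelium, was at 42.4, 38.1, 119 and 97.4 CPM (log2 fold change 1.41, adjusted p = 2.34e-05). Both were higher in each knockout. Of 14 tested endothelial genes 4 rose and 1 fell, with 1 higher without control 1, and 0 lower when any single library was left out. The summed endothelial list was 281, 322, 510 and 429 CPM, with all knockout values above the controls. Of 17 tested barrier genes 2 rose and 1 fell. Slc2a1, the glucose transporter of that barrier, was at 75.2, 108, 206 and 181 CPM (log2 fold change 1.07, adjusted p = 0.000254). Itm2a, a membrane protein gene of brain capillaries, was at 88.5, 101, 40.4 and 21.1 CPM (log2 fold change -1.76, adjusted p = 3.82e-05). These 2 barrier genes moved in opposite directions, and neither overlapped between the groups.

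Of 20 tested genes that are known from cavernous malformation endothelium, 11 rose and 1 fell, with a median log2 fold change of 0.85. The number that rose was 4 without control 1 and 6 without control 2. Ly6a, a surface antigen gene of mouse endothelium, was at 42.0, 48.1, 196 and 148 CPM (log2 fold change 1.91, adjusted p = 8.45e-07). Of 12 mural genes 1 rose and 1 fell, which became 0 lower without control 1, control 2 or knockout 2. Tagln, an actin-binding gene of smooth muscle, was at 2.31, 2.93, 51.7 and 25.2 CPM (log2 fold change 3.72, adjusted p = 1.63e-05). Both were higher in each knockout than in each control. Of 18 basement membrane and matrix genes 5 rose and 1 fell. Col4a1, a collagen chain of the vessel basement membrane, was at 28.1, 33.0, 80.7 and 90.7 CPM (log2 fold change 1.5, adjusted p = 1.49e-05). Bcan, a proteoglycan gene of perineuronal matrix, fell from 144 and 185 CPM to 60.2 and 61.7 CPM (log2 fold change -1.43, adjusted p = 1.03e-05). The summed erythrocyte list was 553, 972, 990 and 1177 CPM.

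Some metal-binding and most tested glucocorticoid-induced genes rose. Mt1 and Mt2 encode metallothioneins, which bind zinc and are induced by glucocorticoids and metals. Mt1 was at 1132, 1346, 5935 and 4700.0 CPM (log2 fold change 2.10, SE 0.17, adjusted p = 3.13e-07). Mt2 was at 226, 364, 1723 and 1309 CPM (log2 fold change 2.36, adjusted p = 3.84e-07). Fth1, the ferritin heavy chain gene, was at 2976, 2968, 6225 and 5614 CPM (log2 fold change 0.99, adjusted p = 0.000383). The groups were well apart in all 3. Of 11 tested metallothionein and iron genes 5 rose and 6 were not called, and 3 rose without control 2 or without knockout 2. Of 17 glucocorticoid-induced genes 11 rose, 1 fell and 5 were not called, with a median of 0.87, and Lcn2, Mt1 and Mt2 are on this list too. Gpx3, a secreted peroxidase gene, was at 11.1, 12.6, 95.6 and 86.9 CPM (log2 fold change 2.93, SE 0.19, adjusted p = 2.85e-08).

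Few glycolysis genes were called, while some hypoxia genes rose and some nuclear genes of the respiratory chain fell. Of 18 glycolysis genes 1 rose and 0 fell, with a median of 0.017, and Gapdh was at 3798, 3076, 3256 and 3784 CPM, with overlapping groups. Of 17 tested hypoxia genes 6 rose and 1 fell, with a median of 0.48 and 0 lower without control 1, control 2 or knockout 2. Adm, the gene of the vasodilator adrenomedullin, was at 0.922, 2.93, 21.2 and 19.3 CPM (log2 fold change 3.31, adjusted p = 5.62e-05). Bnip3, a mitophagy gene, was at 139, 117, 227 and 243 CPM (log2 fold change 0.88, adjusted p = 0.000326). Both were higher in each knockout than in each control. Of 30 nuclear genes of the respiratory chain 0 rose and 6 fell, which became 3 without control 1, 13 without control 2 and 2 without knockout 2. Of 13 mitochondrial genes 1 rose, which became 8 without control 2, the library with the highest mitochondrial share, while 0 rose and 3 fell without control 1. Of 23 tested heat shock and endoplasmic reticulum stress genes 0 rose and 5 fell, with 2 without control 1, 3 without knockout 1 and 2 without knockout 2. Hsph1, a chaperone gene, was at 271, 226, 125 and 151 CPM (log2 fold change -0.83, adjusted p = 0.000851).

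**Figure D2:**
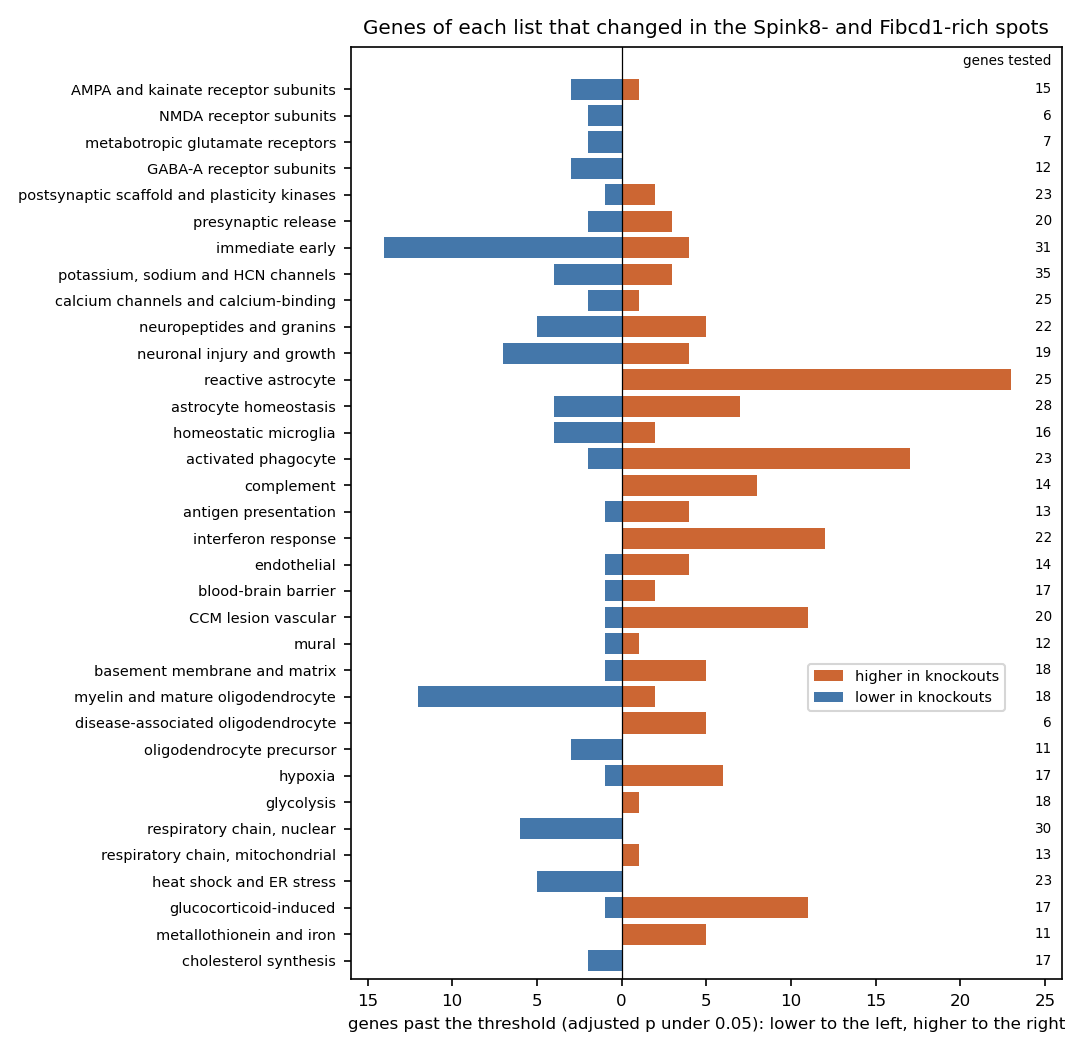
Number of genes of each list called in the Spink8- and Fibcd1-rich spots at an adjusted p under 0.05, higher in knockouts to the right and lower to the left, with the genes tested at the far right. The reactive astrocyte list has 23 of 25 to the right, and the immediate early and myelin lists have 14 of 31 and 12 of 18 to the left.

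Single spots showed how widely the changes were spread. Each spot was thinned to 5000 UMIs. A list's limit was set at the higher 99th percentile of the 2 control libraries. The reactive astrocyte list had a median of 2 and 1 UMIs per spot in the controls and of 12 and 11 in the knockouts. Of the knockout spots 81.25% (95% Wilson interval 72.3 to 87.8%) and 79.2% (71.3 to 85.4%) were above the limit. In control 1 the share was 1.25% (0.221 to 6.75%). In control 2 it was 0 of 83 spots, which allows up to 3.61% by the limit of 3 counts and 4.42% by the Wilson interval. The limit was drawn from these control spots, so the control shares follow from the rule and are not measured rates. Most knockout spots were above nearly all control spots. Activated phagocyte genes were above their limit in 12.5% (7.30 to 20.6%) and 18.4% (12.6 to 26.1%) of knockout spots, and interferon genes in 6.25% (2.90 to 13%) and 9.6% (5.58 to 16.0%). The interferon shares were 28.1% and 25.6% when spots were not thinned. Endothelial genes exceeded their limit in 8.33% and 7.2% of knockout spots. Immediate early genes, a list added to this measure after the data were seen, had medians of 9, 9, 7 and 5 UMIs per spot, with broad overlap between the groups. Intervals cover counting error only, since neighbouring spots of a section are not independent.

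**Figure D3:**
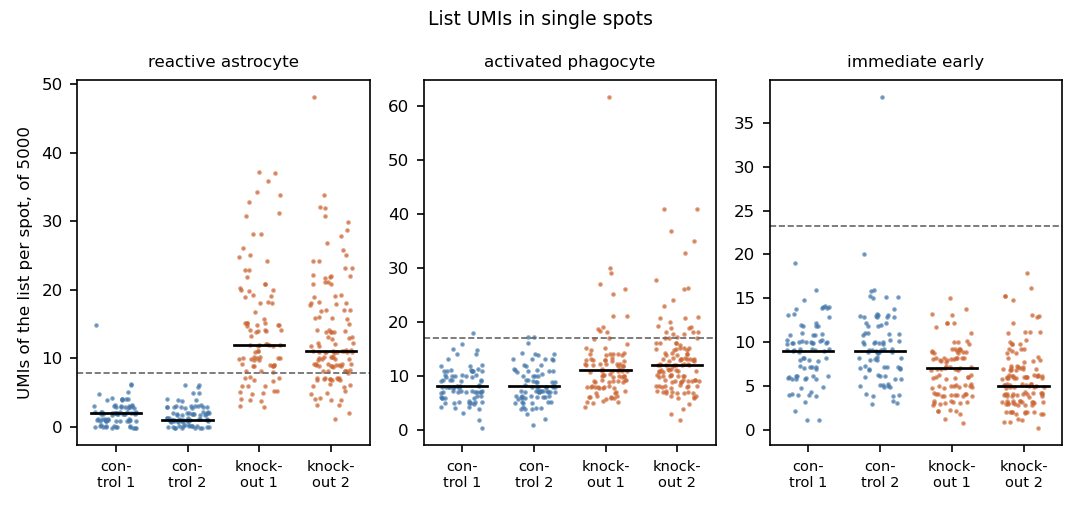
UMIs of 3 gene lists in each Spink8- and Fibcd1-rich spot after thinning to 5000 UMIs, by library. Each point is a spot, the bar is the library's median and the dashed line is the limit. Reactive astrocyte medians are 2, 1, 12 and 11 UMIs, and immediate early medians are 9, 9, 7 and 5.

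Within a knockout library, spots with more reactive astrocyte UMIs also tended to hold more UMIs of some other lists. Spearman's correlation with the activated phagocyte list was 0.56 over the 96 spots of knockout 1 and 0.34 over the 125 spots of knockout 2. It was 0.24 and 0.43 with the endothelial list and 0.51 and 0.30 with the myelin list. With the immediate early list it was -0.040 and 0.098. In the controls it was 0.19 and 0.10 with the phagocyte list, 0.22 and 0.059 with the endothelial list and 0.19 and 0.27 with the myelin list, so some knockout values lay near a control value. Spots of 1 library share their section and slide, and these values are a description.

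The change in the Spink8- and Fibcd1-rich spots was then set against that in all other spots of the same libraries. The test was the interaction of genotype and spot class over 8 sums with library as a block, so its estimate can differ slightly from the difference of the 2 separate changes. With 2 libraries a group, its very small p-values rest on a spread estimated across genes and not on the gene alone. Of 16857 genes 180 had a larger log2 change in the chosen spots (1.07%) and 135 a smaller one (0.801%), together 1.87%. These numbers were 76 and 45 without control 1, 43 smaller without control 2, and 90 and 35 without knockout 2. In the other spots alone, 19.6% of 17377 genes rose and 17.9% fell. Spots outside the ranking still hold CA1 tissue that missed the limit. Their mix of tissue may also differ between the groups. In these other spots the summed pituitary list was at 179, 82.8, 6.90 and 7.14 CPM. The thalamus list was at 375, 460, 259 and 254 CPM, and the striatum list, the other way, at 258, 249, 474 and 499 CPM. The part of tissue mix in the differences was not tested.

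Several rises were steeper inside than in the pooled other spots, but not always steeper than in the dentate or cortical spots described further on. Gfap rose by 3.24 in the chosen spots and by 2.22 in the others (difference 0.96, SE 0.14, adjusted p = 2.04e-09). It rose more in the cortical spots, by 3.93 (difference -0.75, adjusted p = 0.0425), and less in the dentate spots, by 2.41 (difference 0.80, adjusted p = 0.00536). Gpx3 rose by 2.93 inside and 1.15 outside (difference 1.71, SE 0.20, adjusted p = 8.3e-14). Its levels were 11.1, 12.5, 93.4 and 86.1 CPM inside and 37.3, 38.2, 82.4 and 89.1 CPM outside, so the classes lay apart in the controls and close together in the knockouts. In the dentate spots Gpx3 rose more, by 4.43 (difference -1.53, adjusted p = 0.00401), and in the cortical spots by 3.37 (difference -0.45, adjusted p = 0.608).

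Kcne1l, an accessory potassium channel subunit gene, was at 0.926, 1.25, 24.9 and 22.3 CPM inside and at 7.30, 11.2, 22.6 and 17.7 CPM outside. Its log2 fold change was 4.37 inside and 1.08 outside (difference 3.35, adjusted p = 8.57e-09). The chosen spots held only 5 Kcne1l UMIs in the controls, against 113 in the knockouts. The difference did not pass with equal numbers of spots thinned to 5000 UMIs (adjusted p = 0.249). Here too the knockout levels of both classes were alike and the control levels were lower inside. In the cortical spots its change was 4.16 (difference 0.13, SE 1.45, adjusted p = 0.982) and in the dentate spots 2.26 (difference 2.10, adjusted p = 0.0528). Thsd4, a matrix gene of the thrombospondin type, was at 4.61, 7.11, 27.6 and 34.5 CPM (difference 1.89, adjusted p = 1.31e-05). Olfml2b, an olfactomedin-like matrix gene, was at 3.69, 6.28, 17.7 and 24.0 CPM, while its change outside was -0.26 (difference 2.23, adjusted p = 1.11e-07). Against the cortical spots the differences of Thsd4 and Olfml2b did not pass (adjusted p = 0.755 and 0.558), and against the dentate spots both passed (adjusted p = 0.046 and 5.45e-06). Hpca rose by 1.26 inside and had a change of 0.31 outside (difference 0.89, adjusted p = 7.74e-21), and it differed from the dentate spots by 1.28 (adjusted p = 6.84e-07) and from the cortical spots by 1.61 (adjusted p = 7.51e-08). Serpina3n and Vim rose in both classes, and their differences did not pass (adjusted p = 0.726 and 0.585). Of 39 named differences, 30 no longer passed when equal numbers of spots were thinned to 5000 UMIs. Among them were those of Gfap, Kcne1l, Dlk1, Tac1 and Wfs1. Of the 32 reactive astrocyte genes 3 had a larger and 1 a smaller change inside.

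Other genes also changed differently inside and outside. Nnat was called in opposite directions. Frzb, a Wnt antagonist gene, also changed in opposite directions, with a log2 fold change of 1.22 inside and -1.11 outside. Its fall outside passed (adjusted p = 0.00043), as did its difference of 2.29 (adjusted p = 6.45e-11). Its change inside did not pass with DESeq2 (adjusted p = 0.226). Nnat, an imprinted gene of a membrane proteolipid, was at 1840.0, 1728, 1129.9 and 1098 CPM inside, a log2 fold change of -0.68 with 0.66 outside (difference -1.39, SE 0.076, adjusted p = 3.62e-70). Dlk1, a Notch-ligand-like gene, was at 82.1, 75.3, 31.2 and 21.6 CPM, a log2 fold change of -1.65 with 0.054 outside (difference -1.80, adjusted p = 2.73e-23). Tac1 had a change of 0.069 outside (difference -1.73, adjusted p = 1.76e-17). In the other spots Nnat rose (adjusted p = 0.00147), while Dlk1 and Tac1 did not pass the test (adjusted p = 0.624 and 0.55). The differences of Nnat, Dlk1 and Tac1 were negative against the dentate spots too, at -0.87, -2.68 and -1.26, and against the cortical spots, at -3.75, -4.76 and -1.89, and all 6 passed the test. Wfs1 rose by less inside than outside, 1.07 against 2.02 (difference -1.01, adjusted p = 1.52e-11), and Ccn3 fell inside with 0.23 outside (difference -1.01, adjusted p = 2.25e-31). Nr4a1 fell by less inside, -1.68 against -2.64 (difference 0.88, adjusted p = 1.68e-06). So did Arc, with -1.34 against -2.57 (difference 1.15, adjusted p = 5.56e-10). Of the 32 immediate early genes 6 and of the 18 myelin genes 8 had a larger change inside, less negative or more positive. In either list 0 had a smaller one. Myelin genes differed the other way from the classes described further on. Against the dentate spots 0 of the 18 had a larger and 6 a smaller change, and against the cortical spots 0 and 2.

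**Figure D4:**
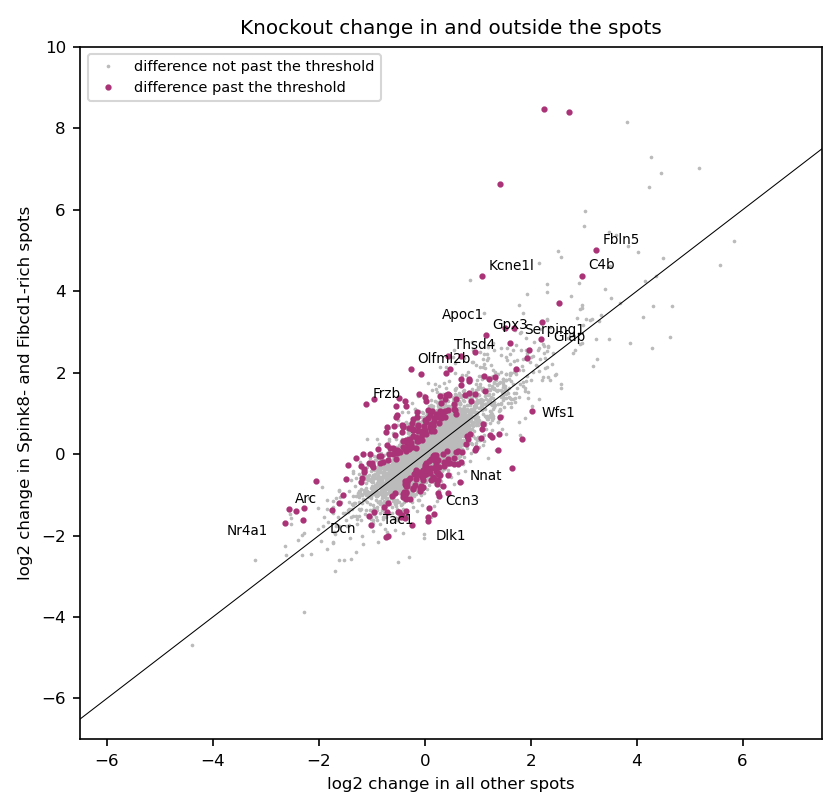
Log2 knockout change of each tested gene in the Spink8- and Fibcd1-rich spots against that in all other spots. Purple points are the genes whose difference passed an adjusted p under 0.05, and the line marks equal change. Kcne1l, with 5 UMIs in the chosen control spots, lies above the line (4.37 against 1.08). Nnat and Dlk1 lie below.

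Spots chosen in the same way by Prox1 and C1ql2, markers of dentate granule cells (443 spots), and by Lamp5 and Rasgrf2, genes of upper cortical layers (433 spots), served as a second comparison. Lamp5 itself was lower in the knockouts' cortical spots, at 128 and 126 CPM against 615 and 514 CPM in the controls. Rasgrf2 was higher there, at 385 and 389 CPM against 263 and 228 CPM. Both genes chose these spots, so their levels are no separate check of the tissue. In the dentate spots other granule cell genes were lower in the knockouts, with Lct at 35.3, 36.9, 0.647 and 2.92 CPM, Plk5 at 56.8, 50.7, 20.7 and 16.7 CPM and Tdo2 at 28.2, 34.4, 12.9 and 17.5 CPM. Neither class need therefore be the same kind of tissue in both groups. Of 12558 genes 438 changed more positively in the Spink8- and Fibcd1-rich spots than in the dentate spots (3.49%) and 538 more negatively (4.28%), together 7.77%. Against the cortical spots 288 of 12281 changed more positively (2.35%) and 218 more negatively (1.78%), together 4.12%. Without control 1 these became 138, 183, 132 and 99. Without control 2 the dentate numbers were 213 and 291, without knockout 2 they were 206 and 335, and without knockout 1 the cortical numbers were 168 and 142.

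The immediate early genes were ordered differently in the 3 classes. Of 32 genes 23 fell less or rose more in the Spink8- and Fibcd1-rich spots than in the cortical spots, and 0 the reverse. Against the dentate spots 11 of 32 changed more negatively and 1 more positively. Nr4a1 had a log2 fold change of -1.68 in the Spink8- and Fibcd1-rich spots and of -4.47 in the cortical spots (difference 2.76, SE 0.24, adjusted p = 2.27e-08). In the dentate spots it was -1.46 (difference -0.25, adjusted p = 0.717). Fos had -2.12 against -4.07 in the cortical spots (difference 1.93, adjusted p = 4.1e-05) and -0.80 in the dentate spots (difference -1.34, adjusted p = 0.00455). Its fall was thus intermediate between the other classes. Penk rose by 1.78 here and by 5.64 in the dentate spots (difference -3.91, SE 0.31, adjusted p = 5.76e-10), where it went from 23.6 and 33.7 CPM to 1336 and 1560 CPM.

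**Figure D5:**
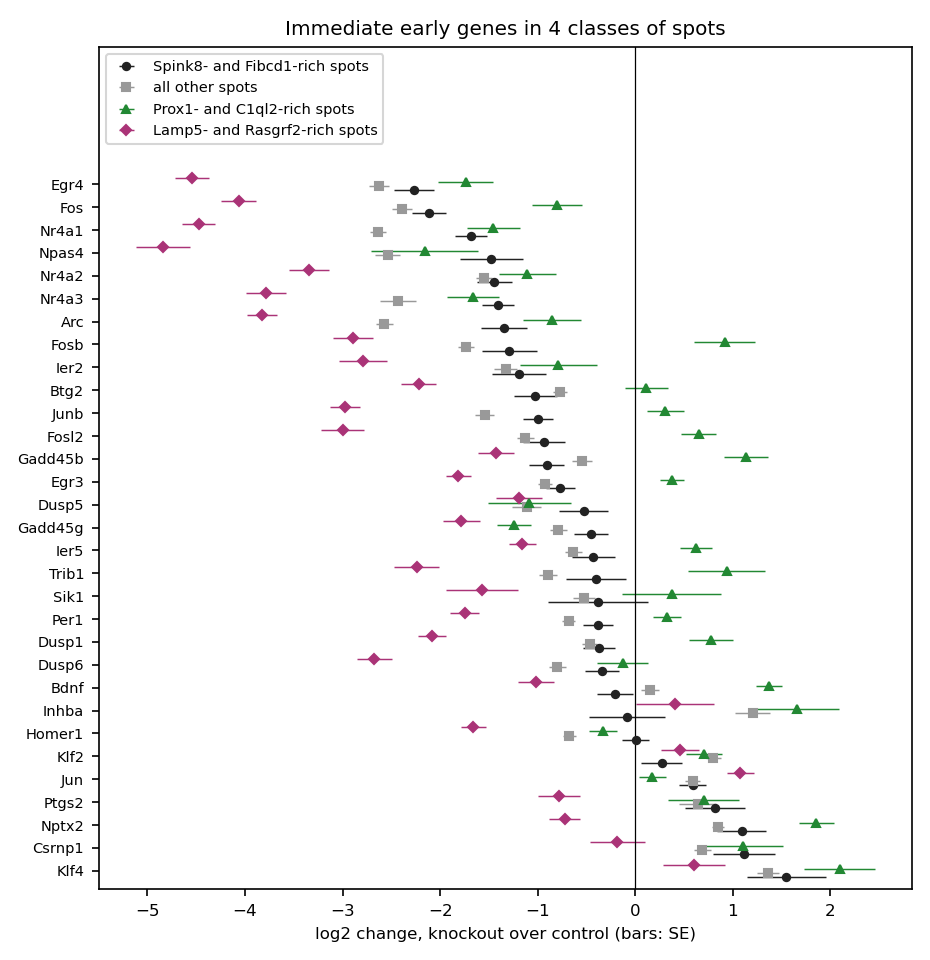
Log2 knockout change, with its standard error, of 31 immediate early genes in 4 classes of spots. Black circles are the Spink8- and Fibcd1-rich spots, grey squares all other spots, green triangles the dentate spots and purple diamonds the cortical spots. The purple points of Fos, Nr4a1 and Arc lie at -4.07, -4.47 and -3.82, left of the black ones.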

How the data were processed

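The deposited values of 4 Visium libraries are unnormalised UMI counts for each gene in each spot. Per the submitters' processing notes, Space Ranger and mm10 were used, versions and annotation not given in the sources used here. Images and the places of spots were not used here. Sums of the chosen spots, 1 per library, were tested with edgeR 4.0.16 in R 4.3.3 (TMM factors, filterByExpr, quasi-likelihood test, Benjamini-Hochberg adjustment, threshold 0.05). CPM in tests uses the library size times its TMM factor (0.994 to 1.01), and CPM in the marker checks, list sums and spot-class levels uses the plain total. Differences between spot classes were interactions with library as a block. The members, gene lists and tests were chosen with earlier results of these data known.

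Named genes were, among calls with groups apart, a mean of at least 10 CPM and no predicted symbol, 12 rises and 12 falls of the greatest size, the 6 lowest p-values, up to 4 genes per list, Pdcd10, 8 differences per direction, and the CA1 markers. Of 32245 symbols 26296 matched RefSeq's table. The procedure was tested on simulated data with 200 changed genes. The knockout test recovered 75% of 2-fold and 93% of 4-fold changes, and 11 of its 179 calls were false. The test of a difference from the other spots recovered 48% and 66%, and 3 of its 117 calls were false. A difference that did not pass need therefore not be absent. Alternatives were DESeq2 1.42.0, no filter, other spot limits, thinning, a replicate block and leaving out each library. Counting ratios use exact intervals, and shares of spots 95% Wilson intervals, with a limit of 3 counts where 0 spots passed.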

Additional observations from a re-analysis of the deposited data

Results flagged for a closer look

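The knockout change of 39 named genes differed between the Spink8- and Fibcd1-rich spots and the other spots of the same libraries by the test of the difference itself, at an adjusted p under 0.05. Values are log2 differences, chosen spots minus other spots. In the astrocyte genes the difference was 0.96 for Gfap, 1.70 for Fbln5, 1.12 for S100a11, 0.55 for Fam107a and 0.66 for Aldh1l1. In complement and phagocyte genes it was 1.40 for C4b, 1.32 for Serping1 and 1.57 for Apoc1. Among secreted, matrix and metal-binding genes it was 0.53 for Sparc, -0.70 for Bcan, -0.75 for Dcn, 0.56 for Apod, 0.32 for Mt1, 0.38 for Mt2, 0.35 for Fth1, 1.71 for Gpx3, 2.29 for Frzb (a Wnt antagonist), 2.23 for Olfml2b and 1.89 for Thsd4.

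Immediate early genes had differences of 0.88 for Nr4a1, 0.90 for Nr4a3, 1.15 for Arc and 0.62 for Homer1. Peptide genes had 0.36 for Npy, -1.73 for Tac1 and -1.67 for Adcyap1, the gene of the peptide PACAP. Among genes of CA1 and other pyramidal neurons it was 0.89 for Hpca, -1.01 for Wfs1, 0.90 for Zbtb20, -1.01 for Ccn3 and 0.67 for Neurod6. Receptor and channel genes had -1.32 for Grin2c, -1.34 for Grm8 and 3.35 for Kcne1l. The others were -1.80 for Dlk1, -1.39 for Nnat, 1.59 for Rasgef1c, -1.5 for Arhgap6 and -1.40 for Car14.

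The differences of Hpca, Ccn3, Gpx3, Nnat and Dcn passed the threshold in every setting that tested them. Leaving out single libraries ended the call of 7 to 10 others each. Without control 1 it was lost by 8 genes, Fbln5, S100a11, Apod, Mt1, Rasgef1c, Homer1, Grm8 and Car14 (adjusted p = 0.0554 to 0.714). Without control 2 it was lost by 10 genes, S100a11, Aldh1l1, C4b, Serping1, Apoc1, Npy, Adcyap1, Arhgap6, Grm8 and Car14 (adjusted p = 0.0508 to 0.770). Without knockout 1 it was lost by 7 genes, S100a11, Aldh1l1, Apod, Mt1, Mt2, Grm8 and Car14 (adjusted p = 0.056 to 0.146). Without knockout 2 it was lost by 8 genes, Aldh1l1, Npy, Fth1, Adcyap1, Rasgef1c, Arhgap6, Grm8 and Car14 (adjusted p = 0.0694 to 0.642). A larger change than in the pooled other spots is not a larger change than in every class of spots.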

How the results depend on the processing

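The counts of calls in the Spink8- and Fibcd1-rich spots depended on the tool, the spots and the libraries used. Genes higher and lower numbered 304 and 204 with DESeq2, 389 and 310 with the top 2% of each library, and 206 and 142 with 80 spots a library thinned to 5000 UMIs, where fewer spots and fewer UMIs cannot be told apart. They ranged from 283 to 636 and from 222 to 503 when single libraries were left out. Larger and smaller changes than in the other spots numbered 51 and 23 with DESeq2 and 18 and 11 after thinning, with 58 smaller in the top 2%, and ranged from 76 to 169 and from 35 to 108 without single libraries. Against the dentate spots DESeq2 gave 60 and 84, with ranges of 138 to 375 and 183 to 477, and against the cortical spots 59 and 25, with ranges of 132 to 315 and 99 to 191. Calls over all lists were 219 in the fit reported, 135 with DESeq2, 102 after thinning and 143 to 198 without single libraries. Shares above the interferon limit were 28.1% (28.125) and 25.6% without thinning. Of 94 named genes called, 79 kept the call in every setting that tested them and 0 changed direction.

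With the replicate number as a block 1466 genes were called. Deviations of same-numbered libraries had a correlation of -0.12 over 9734 genes. With 2 libraries a group this is a single value, which cannot decide whether the numbers pair the libraries. The crossed pairing, added after the data were seen, called 1729. The dentate and cortical fits already block by library. The labels' conflict over oxygen, 2 libraries a group and unmapped section levels limit every comparison, and with 2 libraries against 2 no exact permutation p can be under 0.33.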

Other observations

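Other named genes of the Spink8- and Fibcd1-rich spots are given here as values in control 1, control 2, knockout 1 and knockout 2. Cox6a2, a cytochrome c oxidase subunit gene of muscle and some interneurons, was at 53.0, 45.6, 9.91 and 8.19 CPM (log2 fold change -2.49, SE 0.23, adjusted p = 1.32e-06). Lamp5, a membrane protein gene of cortical and hippocampal neurons, was at 42.4, 43.1, 14.2 and 9.36 CPM (log2 fold change -1.96, adjusted p = 2.23e-05). Hes5, a Notch target gene, was at 26.3, 23, 3.54 and 3.22 CPM (log2 fold change -2.87, adjusted p = 1.92e-05). All 3 fell, and that their groups lay apart was a condition of their choice.

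A2m, the gene of a broad protease inhibitor, was at 0.461, 1.67, 48.1 and 34.8 CPM, with 5 UMIs in the controls and 187 in the knockouts. Capg, an actin-capping gene of macrophages, had 2 and 101 UMIs, and Gpnmb, a glycoprotein gene of lipid-laden phagocytes, had 8 and 113. These genes were near background in the controls and rose in the fit (adjusted p = 3.13e-07, 4.42e-06 and 3.83e-05). Galnt15, a glycosyltransferase gene, had 2 UMIs in the controls and 99 in the knockouts, a ratio of 47.4 with a 95% counting interval of 12.8 to 397. Sult1a1, a sulfotransferase gene on the glucocorticoid list, was at 7.84, 10.9, 32.6 and 46.8 CPM (log2 fold change 2.13, adjusted p = 2.86e-05).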
